A study of Mus musculus with 14 samples.

Results

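The promoters of 6 cadherin genes, Cdh1, Cdh2, Cdh3, Cdh4, Cdh11 and Cdh13, were examined for DNA methylation in clones of 4T1, a cell line from a mouse mammary carcinoma. The genes were chosen by name, each had 1 row in the table, and they made up 6 of the 21965 promoters measured. Each line had been grown from a single sorted cell, and 23 such lines had been assessed in a pool for entry into the vasculature (intravasation). The labels call clones E and T intravasating and the clones named I, K, L and P non-intravasating, and give no treatment or engineered allele. Each group is a small set of single-cell clones of the same parent line, so a difference between the groups cannot be told apart from differences between the particular clones drawn. The parental line was not analysed here. Each clone had 1 deposited level per promoter, the fraction of methylated cytosine from 0 to 1, and the labels list 2 sequencing rounds per clone that have no columns of their own. How many reads lie behind a level is unknown, and it cannot tell a few fully methylated alleles from many partly methylated ones.

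Cadherins are calcium-dependent adhesion proteins that bind the same or a related cadherin on a neighbouring cell. Inside the cell, classical cadherins bind catenins, which link them to the actin cytoskeleton at adherens junctions. Cdh1 (E-cadherin) is the classical cadherin of epithelia, including the mammary luminal epithelium, and Cdh3 (P-cadherin) is typical of basal and myoepithelial cells. Cdh2 (N-cadherin) and Cdh4 (R-cadherin) are best known from neural and, for Cdh2, mesenchymal tissues. Cdh11 is a type II classical cadherin of mesenchyme and bone-forming cells. Cdh13 (T-cadherin) lacks the transmembrane and cytoplasmic parts, is held in the membrane by a lipid anchor and is not a classical cadherin in the structural sense, although it was grouped with them here. A gain of Cdh2 with a loss of Cdh1 is known as the cadherin switch of epithelial-mesenchymal transition, and dense promoter methylation usually goes with a silent gene. Expression was not measured here.

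Of the 6 promoters, only that of Cdh1 had little methylation, and the other 5 were at 0.745 or more in every clone. The mean level over the 6 clones was 0.0856 ± 0.0293 (SD, n = 6) for Cdh1. It was 0.788 ± 0.0268 for Cdh3, 0.883 ± 0.0303 for Cdh13, 0.910 ± 0.0167 for Cdh11, 0.932 ± 0.0167 for Cdh2 and 0.938 ± 0.0163 for Cdh4 (SD, n = 6 for each). Among all promoters the median of these means was 0.328, 19.2% had a mean of at least 0.75 and 43.7% a mean of at most 0.25. Cdh4 and Cdh2 stood near the top of the whole table: 99.6% and 99.2% of promoters had a lower mean. The corresponding share was 97.0% for Cdh11, 94.0% for Cdh13 and 84.5% for Cdh3, against 21.5% for Cdh1.

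**Figure D1:**
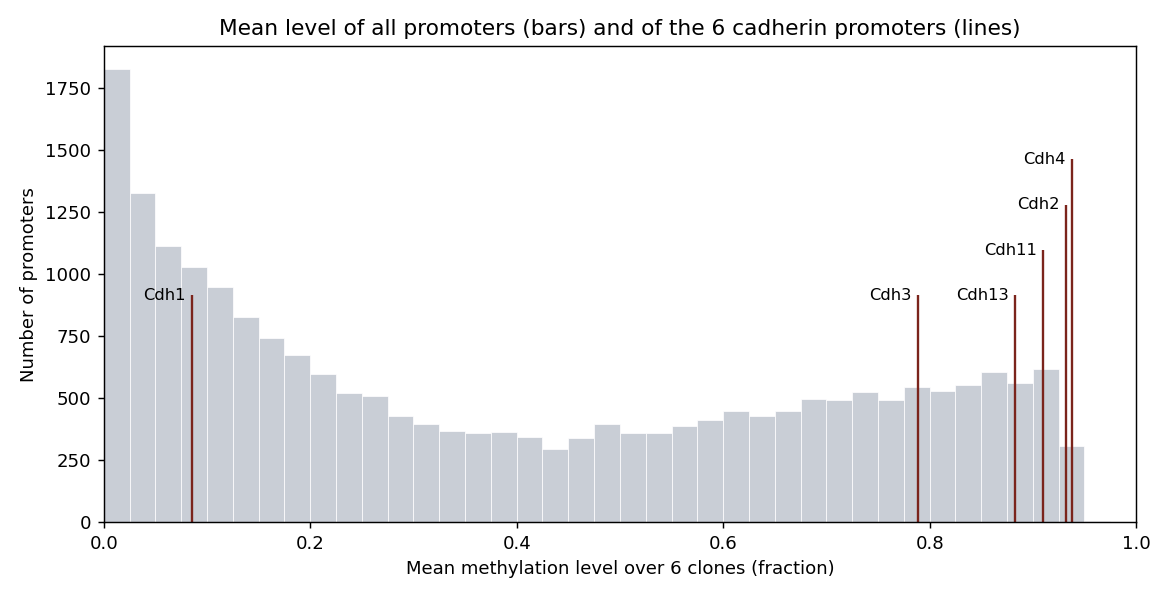
The horizontal axis gives the mean methylation level over the 6 clones and the vertical axis the number of promoters per bin, with the cadherin promoters as labelled lines whose heights carry no value. Cdh1, at 0.0856, stands in the large group of weakly methylated promoters, and Cdh3, Cdh13, Cdh11, Cdh2 and Cdh4 stand between 0.788 and 0.938.

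The order of levels was examined within clones, by an exact sign-flip permutation test of the difference between neighbours in the order. The order came from the mean levels of these same clones, so the pairs and their direction were not set apart from the data tested. With 6 clones its smallest two-sided p is 0.03125, and p-values were adjusted over the 5 neighbouring pairs. Cdh3 exceeded Cdh1 by 0.703 ± 0.0375 (SD, n = 6), and by at least 0.660 in each clone (exact p = 0.03125, adjusted p = 0.0391). The step from Cdh3 to Cdh13 was 0.0943 ± 0.0473 and that from Cdh11 to Cdh2 was 0.0216 ± 0.0139, both with the same sign in 6 of 6 clones and the same exact p (0.03125, adjusted p = 0.0391, n = 6). Cdh4 exceeded Cdh2 by only 0.00638 ± 0.00240 (SD, n = 6), yet also in 6 of 6 clones (exact p = 0.03125, adjusted p = 0.0391). Any step with the same sign in all 6 clones gets this exact p, whatever its size. Cdh11 and Cdh13 did not keep the same order in all clones. Cdh11 was the higher in 5 of 6 clones, by 0.0273 ± 0.0256 on average, and clone T had the opposite order (exact p = 0.0938, adjusted p = 0.0938, n = 6).

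Cdh1, the epithelial cadherin, was the member whose levels differed most between the groups. Its promoter was at 0.106 (clone E) and 0.120 (T), against 0.0975 (I), 0.0820 (K), 0.0375 (L) and 0.0702 (P). The pair of intravasating clones therefore lay above the 4 others, with clone E 0.00897 above clone I, while clone L was lowest of the 6. The group means were 0.113 ± 0.00930 (SD, n = 2) and 0.0718 ± 0.0255 (SD, n = 4), a difference of 0.0413 with a 95% interval of 0.00305 to 0.0795. The limma p was 0.0373 before adjustment and 1.0 after adjustment over all promoters, so the Cdh1 promoter was not called. An unadjusted p under 0.05 was found at 3.93% of all promoters (1.68% with the intravasating clones higher), and 4.31% had both intravasating clones above the other 4. Cdh1 was the only 1 of the 6 members in either count. The difference stayed positive with any clone left out, from 0.0298 without clone L to 0.0498 without clone I. Its unadjusted limma p was then 0.0133 to 0.155 and was under 0.05 in 2 of the 6 cases, without clone I (0.0133) and without clone K (0.0417).

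Over weakly methylated promoters as a whole, the median followed another clone order than Cdh1. Among the 9603 promoters with a mean of at most 0.25, the median was lowest in clones L (0.0782) and T (0.0785) and highest in clone I (0.0917). Clone T was thus among the lowest for these promoters and the highest for Cdh1, at 0.0411 above its own median for them. Clone L was 0.0407 below its own. After subtraction of these medians the group difference at Cdh1 was 0.0408, close to the 0.0413 before it.

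Cdh3, the basal and myoepithelial cadherin, adjoins Cdh1 in the RefSeq gene order of chromosome 8 (assembly GRCm38.p6, genes with a promoter row). The Cdh3 promoter was at 0.806 (clone E) and 0.780 (T), against 0.824 (I), 0.745 (K), 0.795 (L) and 0.781 (P). The groups overlapped, and the highest and the lowest level were both in non-intravasating clones, I and K. The group difference was 0.00639, with a 95% interval of -0.0597 to 0.0725 (limma adjusted p = 1.0). The low Cdh1 level thus stood beside a methylated neighbour on each side: Has3, a hyaluronan synthase gene and the next gene with a promoter row after Cdh1, was at 0.603 ± 0.0350 (SD, n = 6). On the far side of Cdh3, the zinc finger gene Zfp90 was at 0.302 ± 0.0250 (SD, n = 6).

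Cdh2, the neural and mesenchymal cadherin, was at 0.923 (clone E) and 0.929 (T), against 0.941 (I), 0.949 (K), 0.904 (L) and 0.944 (P). Clone L was lowest, the intravasating clones came next, and the remaining 3 clones were higher. The difference was -0.00907 (95% interval -0.0516 to 0.0334, limma adjusted p = 1.0). The Cdh2 promoter was therefore densely methylated in the intravasating clones as well as in the others. The level at Cdh2 exceeded that at Cdh1 by 0.809 in clone T, where the pair was closest, and by 0.874 in clone P, where it was furthest apart. On chromosome 18 the nearest genes with a promoter row were Chst9, a sulfotransferase gene, at 0.364 ± 0.0989 (SD, n = 6), and 4921533I20Rik, at 0.459 ± 0.105 (SD, n = 6). Chst9 lay 828.7 kb and 4921533I20Rik 425.2 kb from Cdh2.

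Cdh4, the retinal and neural cadherin, followed Cdh2 from clone to clone. It was at 0.934 (clone E) and 0.935 (T), against 0.946 (I), 0.955 (K), 0.909 (L) and 0.949 (P). Clones E, T, I, K, L and P thus took the same ranks at both genes, with L lowest and K highest. A like split was seen in the median of all promoters with a mean of at least 0.75. It was 0.821 in clone L, 0.830 in T and 0.853 in E, against 0.869 to 0.872 in P, K and I. How many other promoters share the ranks of Cdh2 was not examined. The group difference of -0.00556 had a 95% interval of -0.0475 to 0.0364 (limma adjusted p = 1.0). Cdh4 lies on chromosome 2, where the nearest genes with a promoter row were Ppp1r3d, 1028.0 kb away, and Taf4a, 12.8 kb away. Ppp1r3d, a gene for a glycogen-targeting phosphatase subunit, was at 0.933 ± 0.0112 (SD, n = 6). Taf4a, a gene for a subunit of the general transcription factor TFIID, was at 0.0624 ± 0.0221 (SD, n = 6).

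Cdh11, the mesenchymal type II cadherin, was at 0.913 (clone E) and 0.885 (T), against 0.927 (I), 0.927 (K), 0.896 (L) and 0.912 (P). Here clone T was lowest and clone L next, and the groups overlapped through clone E. The difference was -0.0163 with a 95% interval of -0.0595 to 0.0269 (limma adjusted p = 1.0). The nearest genes to Cdh11 with a promoter row are other cadherins of chromosome 8, Cdh8 at a distance of 3214.4 kb and Cdh5 at 1316.1 kb. Cdh8, a type II cadherin of the nervous system, was at 0.902 ± 0.0193 (SD, n = 6), and Cdh5, the cadherin of endothelial junctions, was at 0.696 ± 0.0788 (SD, n = 6).

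Cdh13, the lipid-anchored cadherin, had the widest spread of the 6 promoters. It was at 0.880 (clone E) and 0.892 (T), against 0.899 (I), 0.925 (K), 0.838 (L) and 0.863 (P). Both intravasating clones lay in the middle, with I and K above them and L and P below. The difference of 0.00492 had a 95% interval of -0.0556 to 0.0654 (limma adjusted p = 1.0), and its sign changed without clone T, L or P. The nearest genes with a promoter row on chromosome 8 had weakly methylated promoters. Mphosph6, a gene of ribosomal RNA processing, was at 0.114 ± 0.0229 (SD, n = 6). Hsbp1, a gene for a binding protein of heat shock factor, was at 0.216 ± 0.0382 (SD, n = 6). Mphosph6 lay 338.0 kb and Hsbp1 19.6 kb from the nearer end of Cdh13, a gene of 1184913 bp.

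**Figure D2:**
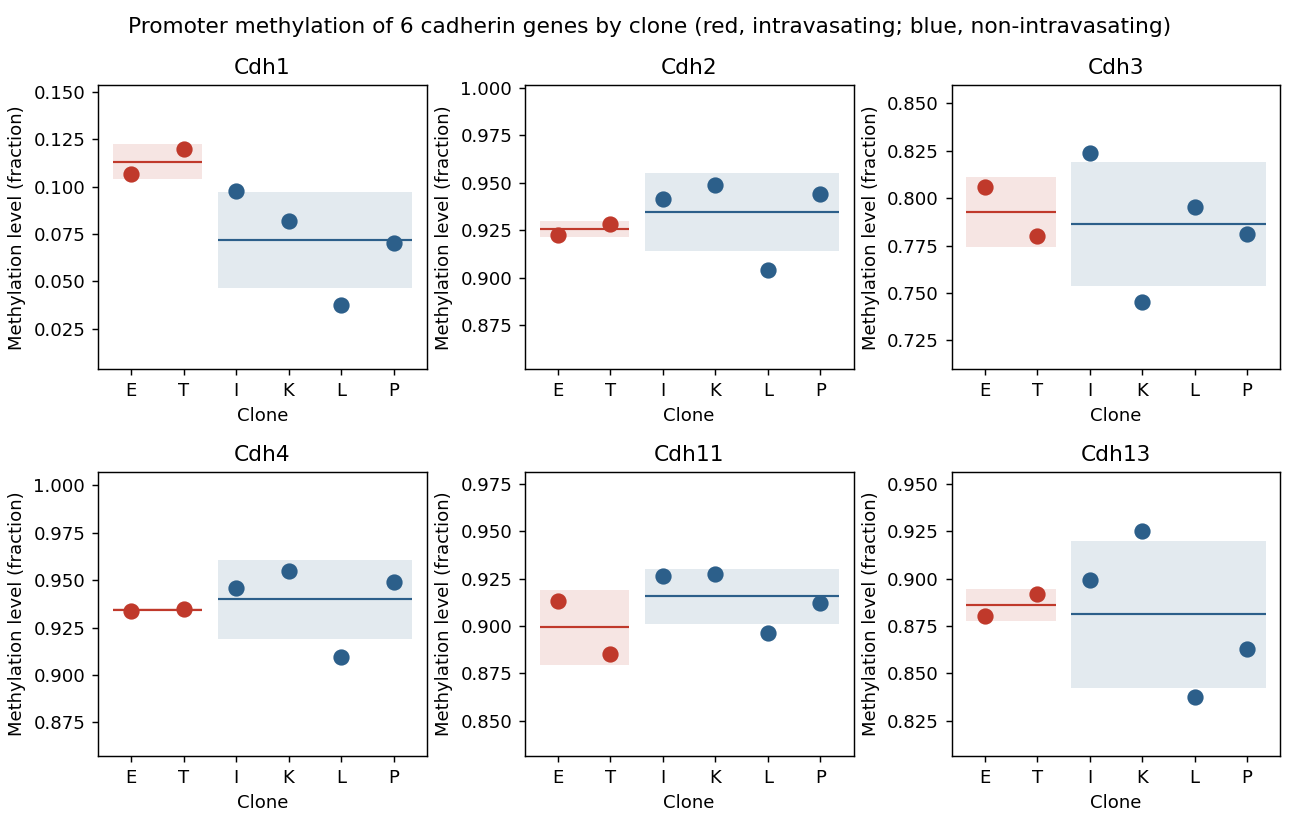
Each panel gives the methylation level of 1 promoter (vertical axis, a fraction, each panel with its own position but the same span) in the 6 clones (horizontal axis). Lines are group means and shaded bands the SD; the 2 intravasating clones stand above the 4 others at Cdh1 alone, and clone L is lowest at Cdh1, Cdh2, Cdh4 and Cdh13.

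In all, limma called 0 of the 6 cadherin promoters at an adjusted p under 0.05, and 1, Cdh1, had an unadjusted p under 0.05. Over all promoters 0.00911% were called, 2 of 21965. The means of Cdh1, Cdh3 and Cdh13 were higher and those of Cdh2, Cdh4 and Cdh11 lower in the intravasating clones. The median difference was -0.000320 over the 6 and -0.00424 over all promoters, of which 42.4% were higher. With each clone left out in turn, none of the 36 fits of a member passed (smallest limma adjusted p = 0.662).

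**Figure D3:**
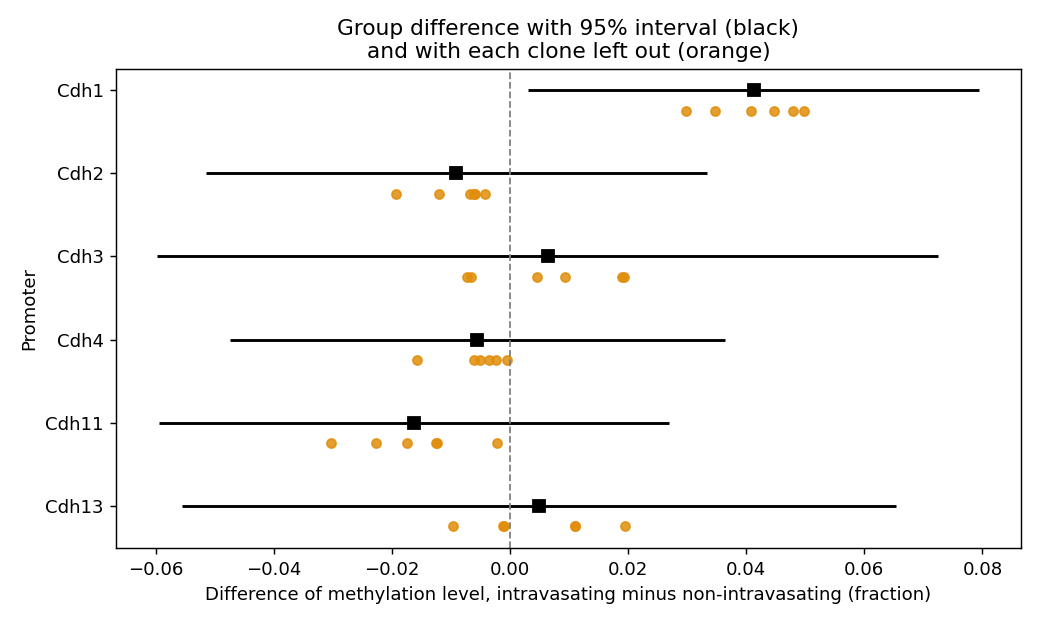
The horizontal axis gives the difference of mean methylation level, intravasating minus non-intravasating, for each promoter on the vertical axis. Black squares and bars are the difference and its 95% interval before any adjustment for the number of promoters, orange points the difference without each clone; the Cdh1 interval runs from 0.00305 to 0.0795 and the other 5 intervals include 0.

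Differences among single clones were also small. The range from the lowest to the highest clone was 0.0422 for Cdh11, 0.0449 for Cdh2, 0.0456 for Cdh4, 0.0786 for Cdh3, 0.0822 for Cdh1 and 0.0874 for Cdh13. Their median was 0.0621, against 0.0894 over all promoters. A range at least as wide was found at 51.1% of all promoters for Cdh13, 54.4% for Cdh1 and 56.5% for Cdh3. The share was 78.4% for Cdh4, 78.8% for Cdh2 and 80.6% for Cdh11. No level of a member stood 0.1 or more from the median of the other 5 clones, a distance found at 5.21% of all promoters in clone P and up to 13.2% in clone L. Levels end at 0 and 1, so a rise of 0.1 was not possible at Cdh2, Cdh4 or Cdh11, nor a fall of 0.1 at Cdh1. Single clones set the width for some members: without clone L the range was 0.0494 for Cdh1, 0.0264 for Cdh2 and 0.0212 for Cdh4, and without clone K it was 0.0442 for Cdh3.

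Clone L was the lowest of the 6 at Cdh1, Cdh2, Cdh4 and Cdh13, and clone K was the highest at Cdh2, Cdh4, Cdh11 and Cdh13. Clone L was also the lowest over highly methylated promoters as a whole. The median of the 4213 promoters with a mean of at least 0.75 was 0.821 in clone L and 0.830 in clone T, and 0.853 to 0.872 in the others. Set against these medians, Cdh2 was 0.0834 above in clone L and 0.0693 to 0.0983 above in the others, so that L was no longer lowest, and Cdh4 was 0.0886 above in clone L and 0.0738 to 0.105 above in the others. Clone T then had the highest relative level at Cdh2, Cdh4 and Cdh13, at 0.0983, 0.105 and 0.0619. Cdh3 was below the median of its class in each clone, most in clone K (-0.126) and least in clone L (-0.0257).

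The level at Cdh1 was next set beside that of its partners and relatives, from gene lists that were made by name. Catenins and other adherens junction partners were mostly weakly methylated. Of their 24 promoters 17 had a mean of at most 0.25, against 43.7% of all promoters. The median of the 24 was 0.0914, close to the 0.0856 of Cdh1 itself. This closeness was not particular to them. The median of all promoters with a mean of at most 0.25 ran from 0.0782 in clone L to 0.0917 in clone I. The lowest were Pkp4 at 0.00829 ± 0.00320 and Pvrl1 (nectin-1) at 0.00874 ± 0.00900 (SD, n = 6 for each). The highest were Ctnnd2, a catenin gene known from neurons, at 0.927 ± 0.0172 and Pkp1, a desmosomal plaque gene, at 0.923 ± 0.0221 (SD, n = 6 for each). The promoters of the catenins that bind E-cadherin in epithelia were low: Ctnna1 was at 0.0888 ± 0.0234, and both promoters of Ctnnb1 and both of Ctnnd1 had means of at most 0.160. These 3 genes were chosen after their values were seen.

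Most other cadherins had a mean above 0.25, but unlike Cdh2, Cdh3, Cdh4, Cdh11 and Cdh13 many were below 0.75. A mean of at least 0.75 was found at 5 of 12 type II cadherins and 1 of 9 desmosomal cadherins. It was found at 11 of 26 further members of the superfamily, against 19.2% of all promoters. The 12 type II cadherins outside the 6 genes had a median of 0.722, and 2 of them had a mean of at most 0.25: Cdh24 at 0.0752 ± 0.0170 and Cdh19 at 0.232 ± 0.105. Cdh8 at 0.902 and Cdh6, at 0.832 ± 0.0366, were highest. Cdh15, the muscle cadherin and the only other type I gene listed, was at 0.566 ± 0.0688. The 9 desmosomal cadherins had a median of 0.613, from Dsg2, the desmoglein of simple epithelia, at 0.131 ± 0.0577 and Dsc2 at 0.380 ± 0.0647 to Dsg1c at 0.666 ± 0.113 and Dsc3 at 0.825 ± 0.050. The 26 further members of the superfamily had a median of 0.729 and none was at or below 0.25. The protocadherin gene Pcdh1 at 0.293 ± 0.0274 and Cdhr1 at 0.345 ± 0.0780 were lowest, and the giant cadherin genes Fat1 and Fat4, both at 0.933, with SDs of 0.0114 and 0.0169, were highest. All SDs in this paragraph are over n = 6 clones.

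The promoters of transcription factors listed by name as repressors of Cdh1 had both low and high levels. Whether each of them acts on Cdh1 was not tested. Of 13 promoters 6 had a mean of at most 0.25 (43.7% of all promoters) and 6 a mean of at least 0.75 (19.2% of all promoters). The remaining promoter, that of Snai2, was at 0.663 ± 0.0734 (SD, n = 6) and is named after its value was seen. One of the 2 Tcf4 promoters (0.0163 ± 0.00996) and Twist1 (0.0438 ± 0.0329) were lowest, and Zeb1 (0.946 ± 0.0136) and Gsc (0.924 ± 0.0184) were highest (SD, n = 6 for each). No repressor promoter was called between the groups by limma, and an unadjusted p under 0.05 was found at 2 of the 13, against 0.00911% called and 3.93% with such a p over all promoters.

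Over all 6 lists, 0 of 85 promoters were called by limma (0.00911% of all promoters), and an unadjusted p under 0.05 was found at 3 of 85, a share near the 3.93% of all promoters. The mean was higher in the intravasating clones at 26 promoters and lower at 59, so that 30.6% were higher against 42.4% of all promoters. The groups did not overlap at 8 of the 85 (9.41%), all 8 lower in the intravasating clones, against 11.2% of all promoters in either direction and 6.89% lower. None of these gaps reached 0.1.

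**Figure D4:**
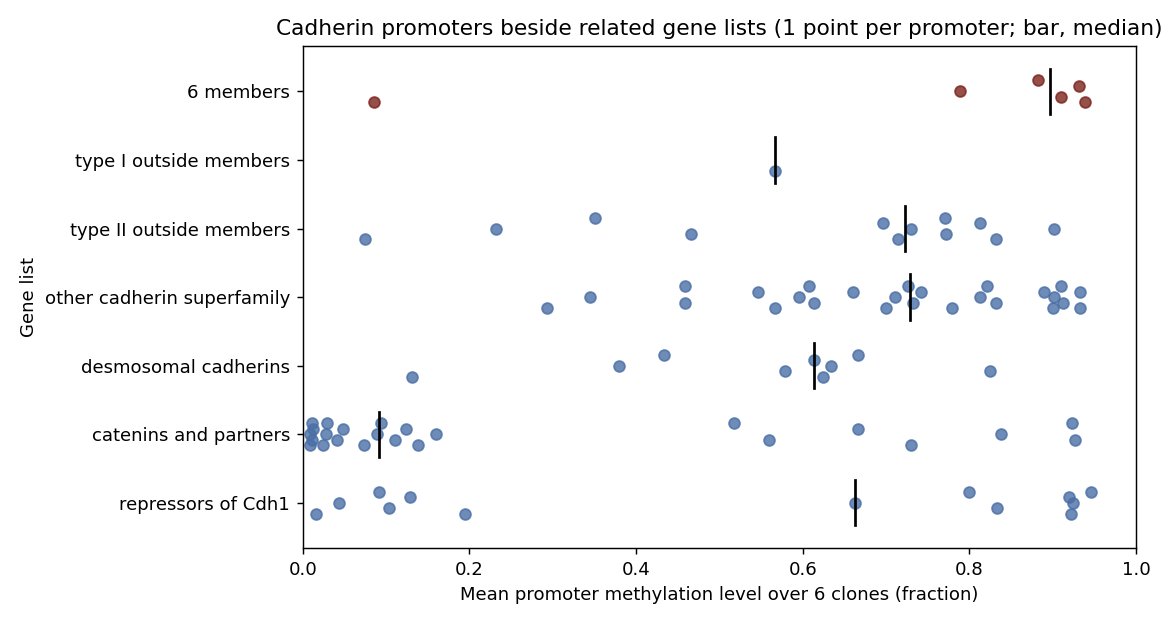
Each point is the mean methylation level of 1 promoter over the 6 clones (horizontal axis), grouped by gene list (vertical axis), with the median of each list as a black bar and points spread vertically for legibility. Cdh1, at 0.0856, stands apart from the other 5 cadherin promoters and near the catenin median of 0.0914.

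As a check of the label, promoters of markers of epithelium and of other cell types were read in the same clones, which gives methylation and not expression. The epithelial markers Krt8, Epcam and Krt18 were at 0.139, 0.172 and 0.258, both Cldn7 promoters at 0.280 and 0.295 and Krt19 at 0.50. Of the leukocyte markers Cd3e was lowest at 0.641 and Ptprc highest at 0.790, and the endothelial markers Cdh5, Kdr and Pecam1 were at 0.696, 0.806 and 0.860. Of the mesenchymal markers Vim and Twist1 were low, at 0.00643 and 0.0438, and Zeb1 and Zeb2 high, at 0.946 and 0.921.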

How the data were processed

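Genomic DNA of the clones was bisulfite converted and sequenced, per the labels' protocols. The authors deposited methylation levels as fractions from 0 to 1, with 1 column per clone, and no counts or coverage. Per the submitters' processing notes bedtools, DESeq and mm10 were used, with no role stated. The aligner, the promoter boundaries and the way of combining the 2 rounds were not given in the sources used here. A second table, of hypomethylated regions, was not used here, since it names no genes and the build of its coordinates was not established. Coordinates are therefore not printed, and RefSeq (GRCm38.p6) served only for chromosomes, gene order, gene length and distances. Distances are between the nearest ends of the genes and not between promoters. The CpG content and motifs of the promoters were not analysed here.

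Of 22110 rows, 145 exact duplicates were counted once, which left 21965. Clones were the replicates, 2 against 4. The clones were separately derived lines, each with 1 value, so p-values measure the spread between these clones of a single parent line. The groups were compared promoter by promoter in R 4.3.3 with limma 3.58.1 (mean trend in eBayes, two-sided, Benjamini-Hochberg over all promoters, called under 0.05). The rest used Python 3.11.15, pandas 2.3.3 and NumPy 2.4.6. The sign-flip test enumerated all 64 sign patterns. On simulated levels for this comparison over 21965 promoters, with 200 changed, 27.5% were called at a difference of 0.1, 58.5% at 0.2 and 90.5% at 0.4. The changed promoters were all taken from the less methylated part of the range and raised in the intravasating clones. These shares therefore do not cover Cdh2, Cdh3, Cdh4, Cdh11 or Cdh13, nor a fall in level. Levels were drawn independently for each promoter and clone, without the shifts that a clone shares over many promoters. The shares therefore hold only for levels without such shifts. Of the unchanged promoters, 5, 3 and 4 were called at differences of 0.1, 0.2 and 0.4.

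The cadherin genes, gene lists and tests were chosen with earlier results of these data known. Of 91 list genes 79 had a row. Named were all 6 cadherins, the nearest gene with a row on each side, the 2 lowest and 2 highest of each list, and list genes called or with a gap of at least 0.1 between groups. Genes with a like pattern were to be named for members with a range of at least 0.1, and no member had one. Alternatives were an arcsine scale, a logit scale (bounds 0.01 and 0.99), no mean trend, centred clones, a range filter, an adjusted p under 0.10 and each clone left out. Centring on the median of promoters with a mean of at most 0.25 (for Cdh1) or at least 0.75 (for the others) was added after seeing the data.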

Additional observations from a re-analysis of the deposited data

Results flagged for a closer look

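The Cdh2 promoter in clone L, at 0.904, stood below the other 3 non-intravasating clones. Its gap to the nearest of them took up 0.831 of the range of the group, just above Dixon's 95% critical value for 4 samples. Of the 6 cadherin promoters tested this way only Cdh2 passed, Cdh4 in clone L came to 0.802, and chance flags about 1 in 20 groups. In clone L the median of all promoters with a mean of at least 0.75 was also the lowest, at 0.821, and its part in the Cdh2 level was not tested.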

How the results depend on the processing

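No cadherin promoter was called by limma under any alternative that gave a p, including an adjusted p under 0.10. Centring on the median of weakly methylated promoters (for Cdh1) or of highly methylated promoters (for the others) gave differences with no test. Cdh1 remained higher in the intravasating clones in all 11 alternatives, with a range of 0.0298 to 0.0498 when each clone was left out. Its unadjusted limma p was 0.0660 on the arcsine scale, 0.109 on the logit scale, 0.0846 without the mean trend and 0.0698 with centred clones. The sign of the smaller differences was not fixed. With clones centred on the median of highly methylated promoters, it turned positive for Cdh2 (0.00763), Cdh4 (0.0111) and Cdh11 (0.000412). These promoters lay above that median in each clone, so the reference was not at their own level. With clones centred on their median over all promoters, the sign turned positive for Cdh4 (0.00189). With each clone left out, the differences went from -0.00728 to 0.0193 for Cdh3 (negative without clone E or K) and from -0.00960 to 0.0195 for Cdh13 (negative without clone T, L or P), and they stayed negative for Cdh2, Cdh4 and Cdh11. The order of mean levels of the 6 promoters was the same on the logit scale and without any 1 clone, although with 5 clones the sign-flip test cannot pass at 0.05. The range filter of 0.1 left out all 6 promoters and gave no value. A coverage minimum could not be applied, and each cadherin had a single row, so that no choice among rows arose. No paired analysis was possible because the columns carry no replicate numbers. Depth is unknown. The simulated fits, with no shift shared by the promoters of a clone, found 27.5% of rises of 0.1 at less methylated promoters. Smaller differences, such as that at Cdh1, and differences at highly methylated promoters were not simulated.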

Other observations

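Of the 85 promoters on the gene lists, 3 had an unadjusted limma p under 0.05, all lower in the intravasating clones, and they are named here after their values were seen. Such a p was found at 3.93% of all promoters, a share near that of the 3 in 85. At Pcdh12, a protocadherin gene known from endothelium, the difference was -0.130 with an unadjusted limma p of 0.00609 (1.0 after adjustment). Clones E and T lay below all others at Pcdh12, by a gap of 0.0431. At the more methylated Tcf4 promoter the difference was -0.0752 with an unadjusted limma p of 0.0337 (1.0 after adjustment), and at Foxc2 it was -0.0949 with one of 0.0432 (1.0 after adjustment). Both genes encode factors that act in epithelial-mesenchymal transition. The groups did not overlap at that Tcf4 promoter and overlapped at Foxc2.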
